A study of Mus musculus with 78 samples.

Results

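Dorsal and ventral hippocampus were compared in mice that drank ethanol. The 24 libraries described here are all those labelled dorsal hippocampus (12) or ventral hippocampus (12), out of 78 in a series that covers 7 brain regions. Each of 12 mice gave 1 library of each region. There were 3 mice for each combination of sex and genotype. Knockout (KO) mice carried a constitutive deletion in Acss2, produced by CRISPR cuts in the introns that flank the stretch between exon 3 and exon 7. The strain is given as C57BL6/J, and founders were backcrossed for 3 generations. Wild-type (WT) mice lacked the deletion. By mouse number, the KO males are 1, 2 and 10 and the KO females 4, 5 and 6. The WT males are 3, 12 and 13 and the WT females 11, 23 and 24. All were adult and housed singly, and all had completed the drinking-in-the-dark procedure, which models binges. After 1 week of habituation they were offered 15% ethanol beside water in sessions of 2 h on days 1 to 3 and 4 h on day 4, and in the second week the sessions offered ethanol and no water. There is no ethanol-free group, and the regional differences below are those of drinking mice. The deletion is present in every cell from conception, and the libraries are from dissected tissue, so no value belongs to one cell type.

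The hippocampus is one structure along its long axis, but its poles differ in wiring and role. The dorsal pole is best known for spatial memory and the ventral pole for stress, anxiety and motivation, with projections to the amygdala, hypothalamus and nucleus accumbens. Along the axis pyramidal and granule cells keep their field identity (dentate gyrus, CA1, CA2, CA3, subiculum) and change in which adhesion molecules, receptors and channels they express.

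The dorsal libraries were much deeper than the ventral ones. Dorsal total counts ran from 4454420 to 8607138 and ventral ones from 629635 to 1206013, and within a mouse the dorsal total was 4.33 to 10.7 times the ventral one (median 8.09). A level of 3 counts, taken as the floor, was 0.349 to 0.673 CPM (counts scaled to a fixed library total) in dorsal libraries and 2.49 to 4.76 CPM in ventral ones, and floors cover counting error only. The sequencing numbers in the labels restart between the regions. Region, depth and library set therefore cannot be told apart. Xist and Ddx3y matched the labelled sex in all 24 libraries. Acss2, which makes acetyl-CoA from acetate, matched the labelled genotype. It was 4.51 to 8.49 CPM in the 6 dorsal KO libraries and 44.5 to 68.1 CPM in the 6 dorsal WT libraries, and 0.957 to 9.42 CPM (1 to 10 counts) and 48.4 to 73.0 CPM in the ventral ones. The genotypes did not overlap in either region. Acss2 did not pass the test between regions (log2 fold change 0.03 ± 0.15 SE, adjusted p = 0.918).

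A few libraries stood apart by markers of neighbouring tissue. A score was taken as the mean log2(CPM + 1) of a marker list. The ventral library of mouse 6 scored 8.46 for striatal projection neuron genes, while the other ventral libraries lay between 3.25 and 4.26. The dorsal library of mouse 23 scored 6.37 for choroid plexus genes, against 1.74 to 4.68 in the other dorsal libraries. It also had the highest dorsal thalamus score (6.30) and the highest dorsal oligodendrocyte score (8.88), and the lowest dorsal level of Lct and of the dentate genes Dsp and Prox1. Where leaving out mice 6 and 23 changed a named gene's call, or a list's count by over 1.5 times, the value without them is given with the result. Mouse 1 stays in those fits. Its ventral library had the highest ventral thalamus score (5.16), with the other ventral KO libraries at 2.36 to 3.38.

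**Figure D1:**
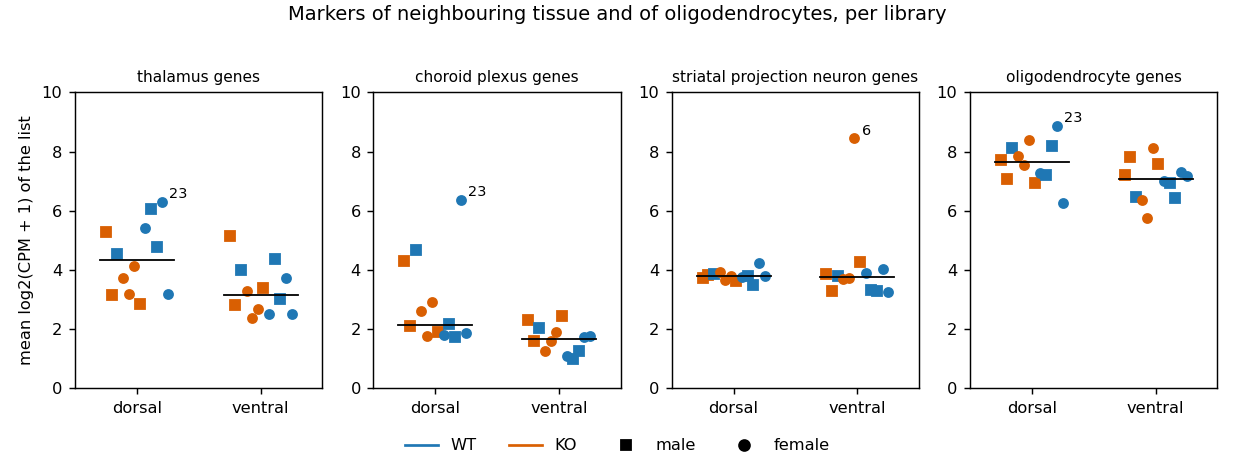
Mean log2(CPM + 1) of 4 marker lists in each of the 24 libraries (vertical axis), by region; circles are females, squares males, blue WT, orange KO, and the line is the median of 12. The ventral library of mouse 6 stands at 8.46 for striatal genes and the dorsal library of mouse 23 at 6.37 for choroid plexus genes.

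Taken as scores, genes that mark the poles differed within mice in the direction of their names, though not every gene did. The ventral pole score was higher in the ventral library of all 12 mice, and the dorsal pole score was higher in the dorsal library of all 12. Score ranges overlapped between the regions. The ventral pole score was 3.04 to 4.30 in dorsal and 3.87 to 5.43 in ventral libraries. The dorsal pole score was 4.85 to 5.97 in dorsal and 3.45 to 5.37 in ventral libraries. Of 12216 genes tested, 1711 (14%) were called at an adjusted p under 0.05, 876 (7.17%) higher in ventral and 835 (6.84%) higher in dorsal. With offsets for gene length and GC content the split moved to 993 higher and 517 lower of 1510. At least 2-fold differences numbered 152 (1.24%), 96 higher in ventral (0.786%) and 56 higher in dorsal (0.458%). The median log2 fold change over all genes tested was -0.01. This median and the share of 14% are the background for the medians and counts of the gene lists below. Here and below a log2 fold change is ventral minus dorsal with its SE, from a fit with the mouse as a block. In bulk tissue, fewer cells of a type and less RNA per cell cannot be told apart.

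Lct, the gene of lactase, showed the clearest dorsal preference among the pole genes. Its level was 33.8 to 227 CPM in the 12 dorsal libraries (median 112) and 2.24 to 73.0 CPM in the 12 ventral ones (median 14). Every mouse was higher in dorsal, and 11 dorsal libraries lay above the highest ventral one; the exception was mouse 23. The log2 fold change was -2.58 ± 0.29 (adjusted p = 1.89e-05), a 5.96-fold difference, and without mice 6 and 23 it was -2.44. Spata13, a guanine nucleotide exchange factor for small GTPases, ran from 14.1 to 63.0 CPM in dorsal (median 34.2) and from 4.71 to 32.2 CPM in ventral libraries (median 14). It was also higher in dorsal in all 12 mice (-1.39 ± 0.16, adjusted p = 1.89e-05), with 7 dorsal libraries above every ventral one.

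The remaining dorsal pole genes did not follow Lct and Spata13. Of the 6 tested, 2 were called higher in dorsal and 1, Ccn3, was called higher in ventral (median of the list -0.57). Ccn3, a secreted matricellular protein formerly named Nov, was 7.00 to 207 CPM in dorsal (median 53.1) and 22.4 to 415 CPM in ventral libraries (median 141). It was higher in ventral in 9 of 12 mice (1.29 ± 0.39, adjusted p = 0.0357), and the highest ventral value was that of mouse 11. Its call was lost on leaving out any 1 of 8 mice (1, 2, 3, 5, 6, 11, 12 or 24) and without mice 6 and 23 (adjusted p = 0.0817). Wfs1, which encodes the endoplasmic reticulum protein wolframin and is strong in CA1, had overlapping ranges of 42.8 to 195 CPM in dorsal and 23.6 to 182 CPM in ventral libraries and did not pass the test (-0.35 ± 0.29, adjusted p = 0.445). Gsg1l, an auxiliary subunit of AMPA receptors, had a log2 fold change of -0.15 ± 0.20, and Lefty1, a secreted Nodal inhibitor, of -0.79 ± 0.52; neither passed.

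On the ventral side 4 of the 9 tested pole genes were called higher in ventral and none was called higher in dorsal, with all 9 fold changes positive (median 0.99). The ventral calls were 7 without mice 6 and 23. Grp encodes gastrin-releasing peptide. Its level was 2.26 to 20.7 CPM in dorsal libraries (median 7.98) and 4.71 to 81.3 CPM in ventral ones (median 37.7). In 10 of 12 mice the ventral library was higher, and 10 ventral libraries lay above all dorsal ones (2.07 ± 0.35, adjusted p = 0.0011). Dcn encodes the proteoglycan decorin. It ran from 4.94 to 36.8 CPM in dorsal (median 17.7) and from 5.89 to 251 CPM in ventral libraries (median 64.7), higher in ventral in 10 of 12 mice (1.8 ± 0.43, adjusted p = 0.0105). Dcn also marks fibroblasts and meninges; of the 7 genes of that list tested, Dcn was the only one called, the list's median log2 fold change was -0.14, and its summed level was 26.8 to 141 CPM in dorsal and 25.9 to 279 CPM in ventral libraries. Its part in the result was not tested.

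Oxtr, the oxytocin receptor, was low in both regions but higher in ventral in all 12 mice. It measured 1.21 to 6.22 CPM in dorsal libraries (median 3.38) and 3.71 to 17.7 CPM in ventral ones (median 9.75), with 9 ventral libraries above all dorsal ones (1.43 ± 0.20, adjusted p = 0.000251). Nr2f2, a nuclear receptor also called COUP-TFII, ran from 10.4 to 42 CPM in dorsal (median 18.3) and from 13.4 to 78.2 CPM in ventral libraries (median 45.8). It was higher in ventral in 11 of 12 mice (1.28 ± 0.21, adjusted p = 0.000898). The exception was mouse 6, whose ventral library was the lowest. Trhr, the receptor of thyrotropin-releasing hormone, was below the count filter and not tested; it was 0.545 to 5.91 CPM in dorsal libraries and 1.95 to 40.3 CPM in ventral ones, higher in ventral in all 12 mice.

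**Figure D2:**
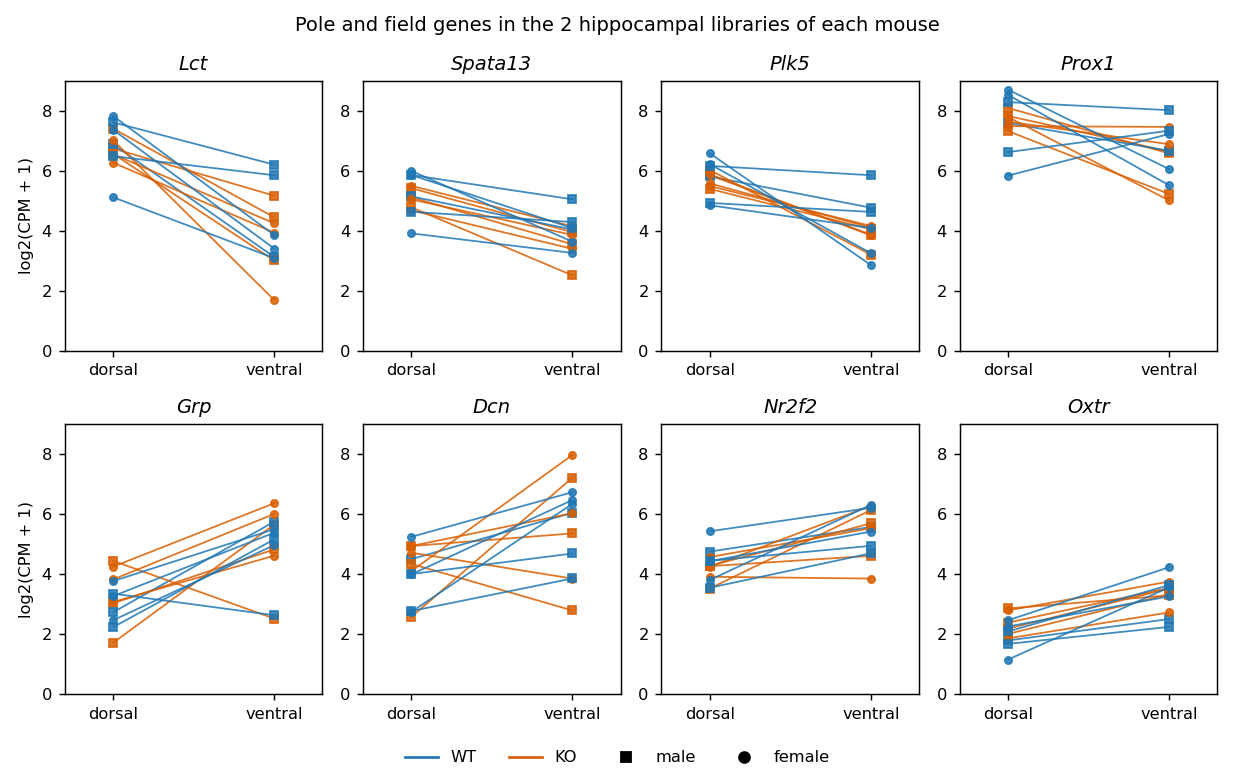
log2(CPM + 1) of 8 genes (vertical axis) in the dorsal and ventral library of each of 12 mice, joined by a line; blue is WT, orange KO, squares males, circles females. Lct, Spata13 and Plk5 fall from dorsal to ventral in all 12 mice and Oxtr rises in all 12, while Grp and Dcn rise in 10 and Prox1 falls in 10.

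Htr2c, Gpc3, Tox3, Etv1 and Htr1a did not pass. Htr2c, the serotonin 2C receptor, was 5.81 to 133 CPM in dorsal (median 22) and 16.6 to 88.3 CPM in ventral libraries (median 49.7), with a log2 fold change of 0.99 ± 0.34 (adjusted p = 0.057). The dorsal maximum of 133 CPM was that of mouse 23, the library with the highest choroid plexus score, and Htr2c is strongly expressed in choroid plexus. Without mice 6 and 23 the log2 fold change was 1.33 and Htr2c was called (adjusted p = 0.01). Whether choroid plexus tissue moves the Htr2c values was not tested. Htr1a, the serotonin 1A receptor, had a log2 fold change of 0.27 ± 0.13 (adjusted p = 0.189) and Etv1, an ETS transcription factor, of 0.13 ± 0.30 (adjusted p = 0.819). Tox3, a nuclear HMG-box protein, had a log2 fold change of 0.18 (adjusted p = 0.605). Gpc3, a glypican, was called after leaving out mouse 23 alone (0.93, adjusted p = 0.025) and without mice 6 and 23 (1.03, adjusted p = 0.0204).

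Among genes of the hippocampal fields, those of dentate granule cells were the ones that leaned dorsal. Of 8 tested, 3 were called higher in dorsal and none higher in ventral, with a list median of -0.89. Dsp, the desmosomal protein desmoplakin, ran from 26.5 to 282 CPM in dorsal (median 156) and from 6.71 to 113 CPM in ventral libraries (median 35.7). The dorsal library was higher in 11 of 12 mice, all but mouse 13 (-1.82 ± 0.35, adjusted p = 0.00275). Plk5, a polo-like kinase family member of neurons, was 27.9 to 95.2 CPM in dorsal and 6.26 to 56.9 CPM in ventral libraries, higher in dorsal in all 12 mice (-1.61 ± 0.25, adjusted p = 0.00048). Prox1, the transcription factor that keeps granule cell identity, was 56.4 to 418 CPM and 31.3 to 260 CPM (-1.03 ± 0.33, adjusted p = 0.045). Its call was lost without any 1 of 9 mice (1, 2, 3, 5, 6, 10, 11, 12 or 24) and with length and GC offsets. C1ql2, a synaptic organizer of mossy fibres, did not pass in the fit of all mice (-1.18 ± 0.41, adjusted p = 0.0605) and passed without mice 6 and 23 (-1.26, adjusted p = 0.0147); in that fit 5 of the 8 dentate genes were called higher in dorsal. The other dentate genes did not pass in the fit of all mice: Trpc6, a cation channel, had a log2 fold change of -0.75 (called without mice 6 and 23 at -0.94), the tryptophan-degrading enzyme Tdo2 of -0.52, the transcription factor Neurod1 of -0.19 and the calcium buffer Calb1 of 0.21.

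The pyramidal field lists gave no call in either direction for CA1 (6 tested, median 0.06), CA2 (4 tested, median -0.14) or CA3 (6 tested, median 0.03). Mpped1, a CA1 gene, came closest with 40.01 to 258 CPM in dorsal (median 128) and 87.2 to 431 CPM in ventral libraries (median 255), higher in ventral in 10 of 12 mice (0.79 ± 0.27, adjusted p = 0.0597). Mpped1 was called without the block, with length and GC offsets, and without mouse 10 or mouse 13. Fibcd1 and Gpr161, other CA1 genes, had log2 fold changes of 0.08 ± 0.38 and 0.04 ± 0.34, and the CA3 genes Grik4 and Spock1 of 0.04 ± 0.17 and 0.06 ± 0.17. Pou3f1, a transcription factor among the CA1 genes, had a log2 fold change of -0.26 and also did not pass. The CA2 genes Necab2, Amigo2, Rgs14 and Pcp4 had log2 fold changes of 0.38, -0.07, -0.22 and -0.39 (Pcp4 was called higher in dorsal without mice 6 and 23, at -0.55 with an adjusted p of 0.0482), and the CA3 genes Nectin3, Rnf182, Bok and Homer3 of 0.17, 0.02, -0.15 and -0.24. Map3k15, Avpr1b, Iyd and the subiculum gene Ly6g6e were below the count filter.

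Of the 5 subiculum genes tested, Cbln4 was called. This secreted synaptic organizer was 3.68 to 16.8 CPM in dorsal (median 5.97) and 4.02 to 66.7 CPM in ventral libraries (median 13.2), higher in ventral in 8 of 12 mice (1.37 ± 0.38, adjusted p = 0.022). Its call was lost without mouse 3 or mouse 11. Fn1, the gene of fibronectin, had a log2 fold change of 0.33, the peptide gene Nts of 0.40, the orphan receptor gene Gpr101 of 1.07 and Slc17a6, a vesicular glutamate transporter, of -0.46; none passed.

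Markers of thalamus were higher in dorsal libraries. Of 8 thalamus genes tested, 6 were called higher in dorsal and none in ventral (median -1.04). Summed levels of the list were 59.1 to 807 CPM in dorsal and 39.2 to 371 CPM in ventral libraries, no marker was at 0 in all libraries of a region, and the score was higher in dorsal in 11 of 12 mice. Prkcd, a protein kinase C of thalamic relay neurons, was 13.5 to 264 CPM in dorsal (median 52.7) and 4.78 to 144 CPM in ventral libraries (median 16.3; -1.82 ± 0.34, adjusted p = 0.00209). Plekhg1, a guanine nucleotide exchange factor, was also called (-1.09 ± 0.22, adjusted p = 0.00378). The thalamus count fell to 3 of 8 without mice 6 and 23 and to 2 of 8 without the mouse block. The calls of Tnnt1, a slow skeletal troponin T, and of Ramp3, a receptor activity-modifying protein, were lost in both of these fits, and that of Tnnt1 also without mouse 2, 4, 5, 11, 13 or 24 and with length and GC offsets. Whether thalamic tissue moves other dorsal values was not tested.

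Choroid plexus genes also ran higher in dorsal libraries, mainly in 3 of them. Ttr, the transthyretin of choroid epithelium, was 1.57 to 4419 CPM in dorsal (median 26.8) and 0 to 77 CPM in ventral libraries (median 13.5). The dorsal libraries of mice 23, 3 and 1 held 4419, 1154 and 998 CPM, and the other 9 lay at or below 50.4 CPM (-3.02 ± 0.79, adjusted p = 0.0164). Leaving out mouse 1 or mouse 3 ended the call, and without mice 6 and 23 the log2 fold change was -2.43. Kl, which encodes klotho and is also expressed by hippocampal neurons, was 19.8 to 123 CPM in dorsal and 7.65 to 24.8 CPM in ventral libraries, higher in dorsal in 11 of 12 mice (-1.30 ± 0.23, adjusted p = 0.00166), and stayed called without mice 6 and 23 (-1.06). Of the 11 choroid genes in the tables, 4 passed the count filter and 7 had a median of 0 counts in ventral libraries. Of the 8 striatal projection neuron genes tested, 1 was called higher in ventral and none higher in dorsal. The calls were 2 higher in ventral and 1 higher in dorsal without mice 6 and 23.

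Ranges of the 12 dorsal and 12 ventral libraries did not overlap for 48 genes (0.393%), 40 higher in ventral and 8 higher in dorsal. Of the 40, 25 were pseudogenes and 14 protein coding. Those with a mean of at least 20 CPM in the higher region, up to 12 a direction by size of change, are named here. This gave 8 genes higher in dorsal and 12 higher in ventral. Before the limit of 12, 18 ventral genes qualified. Sema7a, a membrane-anchored semaphorin, was 154 to 236 CPM in dorsal (median 186) and 67.0 to 145 CPM in ventral libraries (median 114), lower in ventral in all 12 mice (-0.80 ± 0.09, adjusted p = 1.8e-05). Inpp5j, an inositol polyphosphate 5-phosphatase, was 81.7 to 130 CPM and 45.9 to 78.5 CPM (-0.71 ± 0.08, adjusted p = 3.09e-05). Gprc5b, an orphan receptor, was 265 to 386 CPM and 176 to 259 CPM (-0.66 ± 0.07, adjusted p = 1.49e-05). These differences are under 2-fold, and the separate ranges and the shared direction of all 12 mice follow from how the genes were chosen. Usp2, a ubiquitin protease of the circadian system, was 76.3 to 122 CPM and 38.6 to 73.4 CPM (-0.65 ± 0.09). Gdf11, a TGF-beta family ligand, Knop1, a nucleolar protein, Jmjd8, a protein of the endoplasmic reticulum, and Pes1, a ribosome biogenesis factor, had log2 fold changes from -0.58 to -0.33. Pes1 was not called with thinned dorsal libraries.

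In ventral, 8 of the 12 genes so chosen are pseudogenes and 4 are protein coding. Among these pseudogenes Gm15459 (1.37) matched Hspa8, and the others matched mitochondrial genes, as described below. Fxyd6, a regulator of the sodium pump, was 37 to 61.0 CPM in dorsal (median 51.7) and 63.1 to 192 CPM in ventral libraries (median 131), higher in all 12 mice (1.27 ± 0.14, adjusted p = 1.93e-05). Pgrmc1, a heme-binding membrane protein linked to progesterone signalling, was 225 to 316 CPM and 330 to 533 CPM (0.65 ± 0.07, adjusted p = 1.89e-05). Frmpd3, a FERM and PDZ domain protein, was 19.9 to 37.9 CPM and 42.4 to 77.5 CPM (0.91 ± 0.11, adjusted p = 6.71e-05). Smim15, a small membrane protein, was 36 to 54.4 CPM and 54.7 to 102 CPM (0.74 ± 0.10, adjusted p = 0.000155).

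Further genes with large differences in at least 11 of 12 mice were picked after their values were seen. Nnat encodes neuronatin, a proteolipid of the endoplasmic reticulum from an imprinted locus. It was 76.5 to 217 CPM in dorsal (median 144) and 215 to 630 CPM in ventral libraries (median 416), and 11 ventral libraries lay above all dorsal ones (1.37 ± 0.16, adjusted p = 3.2e-05). Crym, a thyroid hormone-binding crystallin, was 31.8 to 181 CPM and 98.9 to 378 CPM (1.38 ± 0.23). Col6a1, a collagen VI chain, was 4.50 to 18.3 CPM and 13.6 to 117 CPM (1.78 ± 0.30), with the ventral library of mouse 24 the highest. Dlk1, Cpne7, Rspo2, Kit, Hes5 and Timp2 were also higher in ventral, with log2 fold changes from 1.15 to 2.79. The value of 2.79 was that of Dlk1, which was low in dorsal libraries. It was tested in 10 of the 12 fits that left out a single mouse, and kept its call in these. No value was available for Dlk1 without mice 6 and 23. Scaled over all 78 libraries, its median was 1.59 CPM in dorsal and 10.6 CPM in ventral hippocampus, and its range in ventral striatum 71.6 to 166 CPM. Whether striatal tissue moves the Dlk1 values was not tested. Dorsal counterparts were Fam163b, which was 104 to 638 CPM in dorsal and 60.3 to 248 CPM in ventral libraries (-1.49 ± 0.22), and Robo3, an axon guidance receptor, at 10.8 to 59.5 CPM and 1.91 to 37.1 CPM (-1.73 ± 0.30).

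Axon guidance and patterning genes went in both directions. Of 28 tested, 6 were called higher in ventral and 5 higher in dorsal (median -0.03). Epha7, an ephrin receptor, led the dorsal side with 115 to 485 CPM in dorsal (median 280) and 69.8 to 218 CPM in ventral libraries (median 97.1). Every mouse was higher in dorsal, and 11 dorsal libraries lay above all ventral ones (-1.33 ± 0.17, adjusted p = 6.49e-05). The other dorsal calls were Epha4, Epha6, Cdh8 and Zbtb20. Efnb2, an ephrin ligand, was 11.9 to 43.3 CPM in dorsal (median 19.1) and 8.28 to 91.7 CPM in ventral libraries (median 55.6), higher in ventral in 10 of 12 mice (1.12 ± 0.26, adjusted p = 0.00865). With Nr2f2, the ventral calls were Efna5, Plxnd1, Cdh13 and Nr2f1, and the call of Efna5 was lost without any 1 of 9 mice (1, 2, 3, 4, 5, 6, 10, 11 or 24) and with thinned dorsal libraries when the same genes were kept.

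GABA-A receptor subunits, which form the chloride channels that GABA opens, gave 2 calls of 12, both higher in ventral. The share called was near that over all genes tested (14%). Gabra3, an alpha subunit, was 16.2 to 99.1 CPM in dorsal (median 52.1) and 34.1 to 170 CPM in ventral libraries (median 107), higher in ventral in 10 of 12 mice (1.04 ± 0.23, adjusted p = 0.00639). Gabrg1, a gamma subunit, was 14.7 to 27.9 CPM and 18.5 to 60.7 CPM, with 10 ventral libraries above all dorsal ones and all 12 mice higher in ventral (0.99 ± 0.13, adjusted p = 8.63e-05). The remaining 10 subunits did not pass, and the median of the 12 was 0.01. A further subunit was called, higher in dorsal, without mice 6 and 23.

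Glutamate receptor subunits went in both directions. Of 15 tested, 2 were called higher in ventral and 3 higher in dorsal (median 0.04). Grin3a, the NMDA receptor subunit that lowers calcium entry, was 23 to 47 CPM in dorsal and 28.5 to 75.9 CPM in ventral libraries (0.70 ± 0.13, adjusted p = 0.00202). Gria4, an AMPA receptor subunit, was also higher in ventral (0.51 ± 0.14, adjusted p = 0.0187). On the dorsal side, Grin2a was 141 to 568 CPM in dorsal (median 371) and 167 to 310 CPM in ventral libraries (median 253; -0.58 ± 0.13, adjusted p = 0.00802). The obligatory NMDA subunit Grin1 was 422 to 602 CPM and 305 to 503 CPM, lower in ventral in all 12 mice (-0.35 ± 0.07, adjusted p = 0.00326), and Gria1 differed by -0.42 ± 0.12 (adjusted p = 0.0258). With length and GC offsets Grin1 and Gria1 were not called, and Gria1 was lost without any 1 of 5 mice (2, 3, 4, 6 or 11).

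Potassium and HCN channel genes, which set excitability, gave 7 calls higher in dorsal and 1 higher in ventral of 24 (median -0.10). Kcnj6, a G protein-gated inward rectifier opened by inhibitory receptors, was 17 to 75.0 CPM in dorsal (median 44.3) and 17.9 to 39.6 CPM in ventral libraries (median 29.4; -0.70 ± 0.18, adjusted p = 0.0157). Kcna1, a voltage-gated channel of axons, was 47.3 to 122 CPM and 45.2 to 87.2 CPM (-0.57 ± 0.15, adjusted p = 0.0158). Kcnq3, Kcnd2, Kcnj3, Kcnip4 and Hcn4 were called in the same direction. Hcn4, which like other HCN channels carries a depolarizing current at rest, had 0 counts in the ventral libraries of mice 12 and 13. It lost its call without mouse 6, 12, 23 or 24, without the block, with length and GC offsets, with thinned dorsal libraries when the same genes were kept, and without mice 6 and 23. In that last fit the list gave 7 calls, all higher in dorsal.

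**Figure D3:**
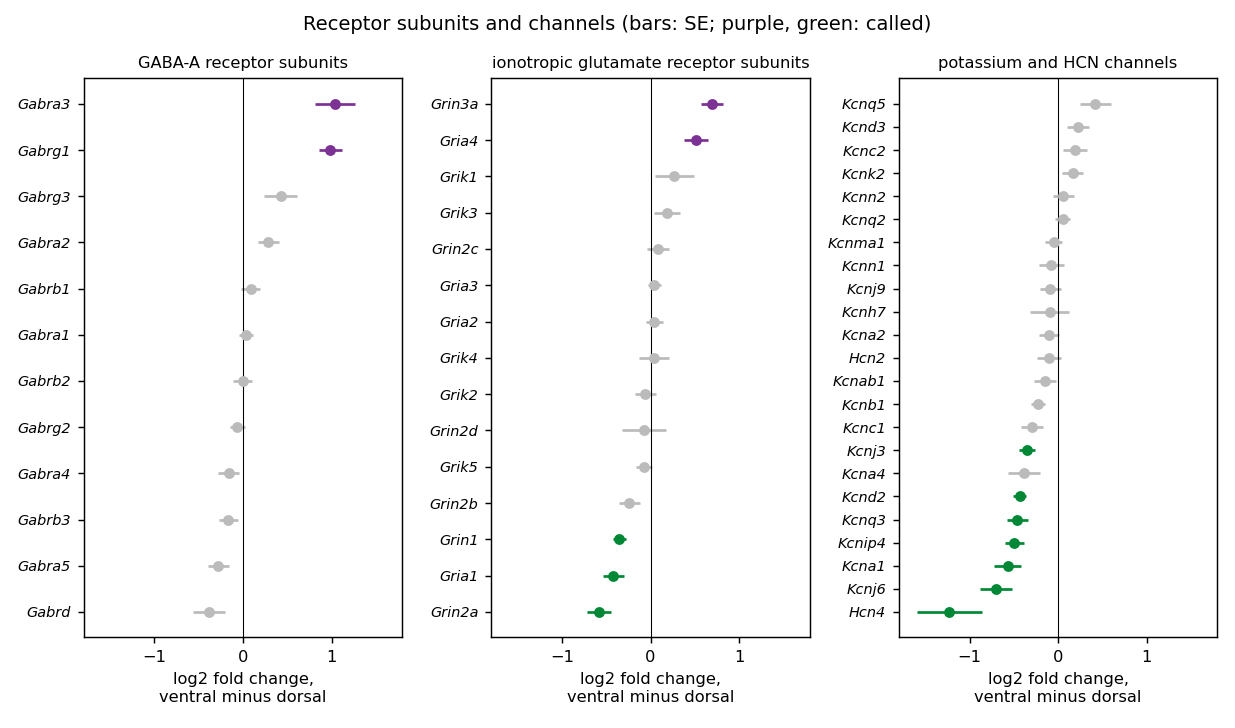
log2 fold change, ventral minus dorsal (horizontal axis), with its SE as a bar, for every tested GABA-A subunit (12) and ionotropic glutamate receptor subunit (15), and for 23 of the 24 potassium or HCN channel genes; purple marks genes called higher in ventral, green higher in dorsal, grey not called. Gabra3 and Gabrg1 stand at 1.04 and 0.99, and 7 channel genes are green, all to the left of 0.

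Receptors for neuromodulators gave 4 calls higher in ventral (Oxtr, Sstr1, Adra2a, Cnr1) and 2 higher in dorsal (Drd5, Chrm1) of 31 tested. Over all genes tested 14% were called. Without mice 6 and 23 the counts were 8 and 3. Sstr1, a somatostatin receptor, was 6.04 to 15.7 CPM in dorsal (median 8.0) and 9.75 to 44 CPM in ventral libraries (median 24.5). The ventral library was higher in 11 of 12 mice and 9 ventral libraries lay above all dorsal ones (1.36 ± 0.19, adjusted p = 0.000221). Adra2a, an inhibitory noradrenaline receptor, was 7.92 to 19.1 CPM and 8.24 to 37.4 CPM (0.82 ± 0.18, adjusted p = 0.0062). Drd5, a dopamine receptor coupled to cAMP, was 7.58 to 28.4 CPM in dorsal and 2.36 to 22.9 CPM in ventral libraries (-0.94 ± 0.25, adjusted p = 0.0174), and its lowest dorsal value was that of mouse 23.

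Interneuron and peptide genes also went in both directions. Of 12 GABA neuron genes 2 were higher in ventral (Vip, Lhx6) and 2 higher in dorsal (Npy, Adarb2). Vip, vasoactive intestinal peptide, was 4.49 to 19.7 CPM in dorsal (median 8.92) and 11.8 to 30.5 CPM in ventral libraries (median 23.6), higher in 11 of 12 mice (1.12 ± 0.19, adjusted p = 0.00119). Npy, neuropeptide Y, ran the other way at 26.7 to 69.5 CPM in dorsal (median 49.4) and 14 to 38.3 CPM in ventral libraries (median 28.7; -0.82 ± 0.14, adjusted p = 0.00115). The Lhx6 call was lost without any 1 of 7 mice (2, 3, 5, 6, 11, 12 or 24), without mice 6 and 23 and with thinned dorsal libraries, and the Adarb2 call without any 1 of 4 (6, 11, 12 or 24) and with length and GC offsets. The list of neuropeptide genes also holds the neurotrophin Bdnf. Of its 12 genes tested, Grp, Vip and Nxph1 were called higher in ventral and Npy and Bdnf higher in dorsal. Without mice 6 and 23 the ventral calls of this list were 5. Of 7 glutamatergic neuron genes, Rbfox3 and Grin1 were called higher in dorsal.

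Among glial lists, astrocytes gave 2 ventral calls of 9, beside 7.17% of all genes tested called higher in ventral. Fgfr3, a fibroblast growth factor receptor, was 80.6 to 163 CPM in dorsal and 109 to 198 CPM in ventral libraries, higher in ventral in all 12 mice (0.48 ± 0.08, adjusted p = 0.00144). Slc1a3, an astrocytic glutamate transporter, differed by 0.39 ± 0.12 (adjusted p = 0.0318) and was lost without any 1 of 5 mice (3, 5, 12, 23 or 24) and without mice 6 and 23 (adjusted p = 0.0768). All 11 oligodendrocyte genes had negative fold changes (median -0.53), and 1, Opalin, was called. The Opalin call was lost without mouse 1 (adjusted p = 0.0509) and without mice 6 and 23 (-0.70, adjusted p = 0.0835), and the dorsal library of mouse 23 had the highest oligodendrocyte score. Microglia (9 tested), vascular (9), oligodendrocyte precursor (6), cortical layer (8), ependymal (2), newborn granule cell (3) and blood genes (2) gave no call. Without mice 6 and 23, 1 newborn granule cell gene was called higher in ventral.

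Activity-regulated genes, which respond to recent firing, gave 2 dorsal calls (Btg2, Bdnf) and 1 ventral call (Homer1) of 18, with a median of -0.25. The share called was near that over all genes tested (14%). Bdnf, the neurotrophin, was 23.2 to 99.8 CPM in dorsal (median 57.0) and 16.8 to 61.5 CPM in ventral libraries (median 36.2; -0.61 ± 0.17, adjusted p = 0.0262). All 3 calls depended on single mice: they were lost without any 1 of 7 mice for Bdnf (1, 2, 3, 5, 6, 11 or 24), 5 for Btg2 (1, 5, 6, 11 or 24) and 9 for Homer1 (1, 3, 5, 6, 10, 11, 12, 23 or 24). Btg2 was also lost with thinned dorsal libraries, and Homer1 when these were thinned and the same genes kept, without the block, with length and GC offsets and without mice 6 and 23. Of 9 glucocorticoid pathway genes, Nr3c2 and Sgk1 were called higher in dorsal, beside 6.84% of all genes tested. Nr3c2, the mineralocorticoid receptor, was 91.0 to 293 CPM in dorsal (median 194) and 77.1 to 207 CPM in ventral libraries (median 146), lower in ventral in 11 of 12 mice (-0.62 ± 0.15, adjusted p = 0.00925). The Sgk1 call was lost without any 1 of 7 mice (1, 3, 4, 5, 12, 13 or 23), without the block, with length and GC offsets and without mice 6 and 23; in that last fit 1 gene of the list was called higher in ventral.

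Of 15 genes of ethanol and acetate metabolism tested, 1 was called higher in ventral and 1 higher in dorsal, a share near that over all genes (14%), and the median was 0.08. Aldh1a1, a cytosolic aldehyde dehydrogenase, was 90.9 to 217 CPM in dorsal (median 107) and 26 to 122 CPM in ventral libraries (median 68.5), lower in ventral in 11 of 12 mice (-0.77 ± 0.17, adjusted p = 0.00566). Acat2, an acetyl-CoA acetyltransferase, differed by 0.50 ± 0.13 (adjusted p = 0.0146).

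The largest ventral differences belonged to genes near-identical to other genes. Of the 33 genes called at least 4-fold higher in ventral, 26 matched another gene's transcript at 95% identity or more over at least 50% of their length, and all 26 were higher in ventral in 12 of 12 mice. Matches included Gapdh (11 genes), Hspa8, Tuba1b and the mitochondrial genes. Gapdh and Hspa8 themselves did not pass the test (log2 fold changes -0.12, adjusted p = 0.323, and -0.12, adjusted p = 0.251), while Tuba1b was called higher in ventral (0.33, adjusted p = 0.0361). At the 2-fold level 33 of 96 ventral genes and 1 of 56 dorsal genes had such a match, which leaves 63 and 55. Not all matched genes are pseudogenes. Tuba1c and Myh7 are annotated as protein coding and matched Tuba1b over 65.9% and Myh6 over 96.5% of their length. The 63 include Gapdh-ps16 (5.36), by its name a Gapdh pseudogene, which had no unique annotation entry to match. Reads of a copy and its parent cannot be separated over identical stretches, so these counts are uncertain.

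Gm10925 and Gm13340 are shown as a copy identical to its mitochondrial parent and one that differs from it. Gm10925 (chromosome 1, 24613974 to 24614651, minus strand of GRCm38, an unprocessed pseudogene) was identical to mt-Atp6 over all 678 bases. Gm13340 (chromosome 2, 22588103 to 22589647, minus strand, also an unprocessed pseudogene) matched mt-Co1 at 97.6% over 1545 bases with 37 mismatches. The first 90 bases of the former pair, and the 90 bases of the latter that hold the most mismatches (5, from base 445), read as follows from GENCODE M21 transcripts, with mismatched bases in capitals.
Gm10925: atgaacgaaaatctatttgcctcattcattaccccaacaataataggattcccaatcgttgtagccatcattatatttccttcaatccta
mt-Atp6: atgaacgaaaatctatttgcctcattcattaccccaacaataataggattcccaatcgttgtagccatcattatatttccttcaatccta
Gm13340: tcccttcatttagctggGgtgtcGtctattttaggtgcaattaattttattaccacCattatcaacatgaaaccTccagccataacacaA
mt-Co1: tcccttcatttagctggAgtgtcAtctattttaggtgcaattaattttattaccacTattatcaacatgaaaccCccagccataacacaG

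Gm10925 was 2.02 to 6.52 CPM in dorsal libraries and 101 to 276 CPM in ventral ones (5.62 ± 0.17, adjusted p = 8.54e-14), and Gm13340 was 5.55 to 12.1 CPM and 73.0 to 193 CPM (4.00 ± 0.12, adjusted p = 8.54e-14). The 8 called pseudogenes with a mitochondrial match, which include Gm28438 and not Gm15459, had log2 fold changes from 3.67 to 6.21. Of their parents, mt-Co1 (0.18, adjusted p = 0.475) and mt-Nd4 (0.11, adjusted p = 0.694) did not pass. The parents mt-Atp6, mt-Co2, mt-Co3 and mt-Nd3 were below the count filter and were not tested. Scaled over all 78 libraries, the median of mt-Atp6 was 1.55 CPM in dorsal and 2.98 CPM in ventral hippocampus. Of 7 mitochondrially encoded genes tested, 1 was called, mt-Nd6 (0.69 ± 0.13, adjusted p = 0.00275). With length and GC offsets mt-Nd6 was not called and its sign changed (-0.091, adjusted p = 0.612). Scaled over all 78 libraries, Gm10925 was 1.52 to 6.41 CPM in the 47 libraries of the deep set (dorsal hippocampus, amygdala, dorsal and ventral striatum) and 57.8 to 275 CPM in the 31 of the shallow set (ventral hippocampus, cortex, prefrontal cortex). Its level thus separated the sets with no overlap, in regions far from the hippocampus as well. Of the 26 genes with a match, 24 were tested between cortex and the amygdala and striatum together, and all 24 were called higher in cortex.

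**Figure D4:**
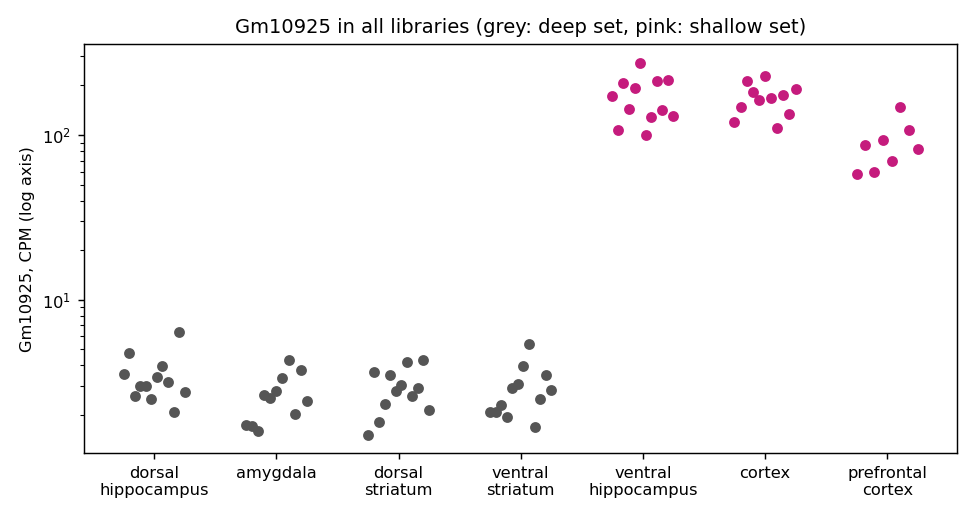
Gm10925 in CPM (vertical log axis) in each library of the 7 regions, 1 point per library; grey is the deep set (47 libraries) and pink the shallow set (31). Levels lie between 1.52 and 6.41 in grey and between 57.8 and 275 in pink.

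**Figure D5:**
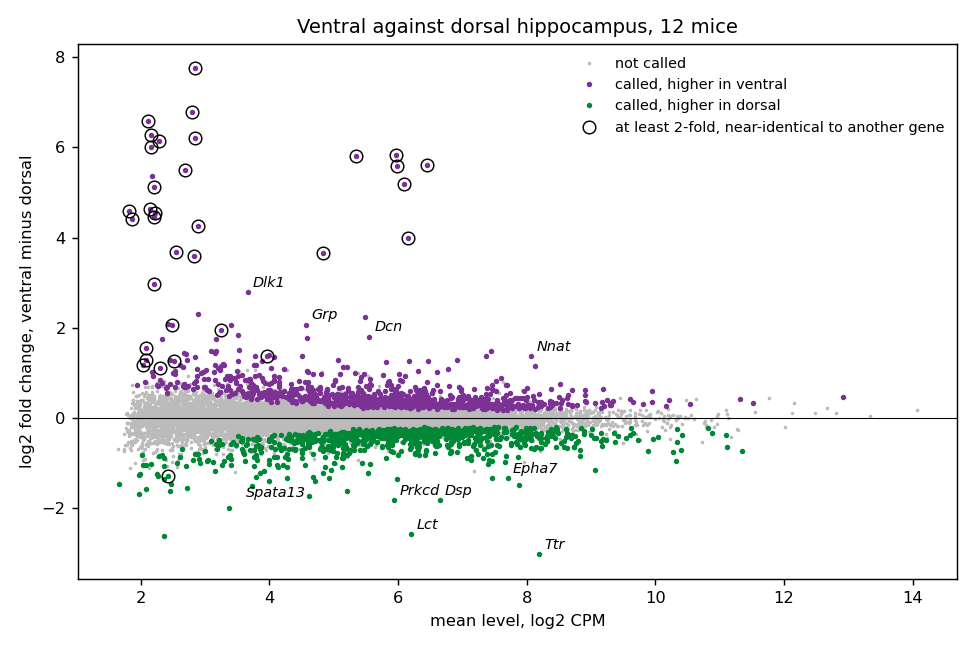
log2 fold change, ventral minus dorsal (vertical axis), against the mean level in log2 CPM (horizontal axis) for the 12216 genes tested in 12 mice; purple and green are called genes, grey not called, and rings mark genes called at least 2-fold that are near-identical to another gene. Rings fill the top of the plot, while Lct, Dsp, Prkcd and Ttr lie at the bottom.

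The same contrast between sets was made without any hippocampal library, cortex against amygdala and striatum, as a description; tissue and set cannot be told apart there either. It called 7021 of 14436 genes (48.6%), 2959 higher in cortex (20.5%) and 4062 lower (28.1%). Of the 876 genes higher in ventral hippocampus, 343 were called higher in cortex (39.2% of the hippocampal list, 11.6% of the cortex list), 181 lower and 349 not called. Of the 835 genes higher in dorsal hippocampus, 320 were called lower in cortex (38.3% and 7.88%), 170 higher and 338 not called.

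In the 6 WT mice alone, 222 of 12779 genes were called (1.74%), 141 higher in ventral (1.1%) and 81 higher in dorsal (0.634%). With length and GC offsets 224 were called, 175 higher in ventral and 49 higher in dorsal. At least 2-fold were 125 (0.978%), 89 higher in ventral (0.696%) and 36 higher in dorsal (0.282%). Lct (-2.41 ± 0.41, adjusted p = 0.00913), Spata13 (-1.26, adjusted p = 0.0241), Grp (2.19, adjusted p = 0.0103), Dcn (1.94, adjusted p = 0.00792), Oxtr (1.69, adjusted p = 0.0269) and Nr2f2 (1.16, adjusted p = 0.0312) were called, and Trhr passed the count filter there and was called too (3.73). In WT mice the calls of Spata13 (without mouse 3, 11 or 12), Nr2f2 (3, 11, 12 or 13), Oxtr (12, 13 or 24) and Grp (12) depended on single mice. Spata13, Nr2f2 and Dcn were not called without the block, nor Spata13 and Nr2f2 with thinned dorsal libraries. Pcp4 was called higher in dorsal (-1.07, adjusted p = 0.0292) and lost without mouse 11, 12 or 23, without the block and with thinned dorsal libraries. Among dentate genes none of 8 was called (median -0.65); Dsp had -1.49 (adjusted p = 0.153). Thalamus genes were called higher in dorsal in 6 of 8 (median -1.64). The count of 222 called genes fell to 102 without mouse 12 and to 137 without mouse 11.

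WT and KO mice share no library. In the 6 KO mice 591 of 12285 genes were called, 313 higher in ventral and 278 higher in dorsal. Called in both genotypes were 105 genes, all in the same direction, which is 47.3% of the WT list and 17.8% of the KO list. Lct was -2.76 in KO and -2.41 in WT mice, Grp 1.96 and 2.19, and Nnat 1.05 and 1.69. Prkcd was -0.72 (adjusted p = 0.18) in KO and -2.70 (adjusted p = 0.00084) in WT mice. The regional difference itself was tested against genotype, and none of 12895 genes passed (smallest adjusted p = 0.609; 463 at an unadjusted p under 0.05). DESeq2 called 1.

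Females gave 482 calls of 12223 genes tested and males 178 of 12839. Called in both were 98, with none in opposite directions (20.3% of the female list, 55.1% of the male list). The region by sex term passed for none of 12895 genes (smallest adjusted p = 1; 462 at an unadjusted p under 0.05), and DESeq2 also called 0. The number of calls in each sex was not itself compared by a test.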

How the data were processed

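The authors deposited raw read counts per gene, 1 table for each sex. Per the submitters' processing notes, STAR 2.5.2a, SAMtools 1.1, HTSeq 0.6.1, DESeq2 and R 4.0.2 were used with builds GRCm38 and mm10. Per the labels, poly(A) RNA was taken from 300 ng of total RNA. The annotation, the strandedness and the handling of reads with several matches are not given in the sources used here, so antisense and overlapping genes are uncertain.

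Groups came from the sample titles. Counts were scaled by TMM, filtered with filterByExpr (minimum count 10, total 15) and tested two-sided with edgeR 4.0.16 (quasi-likelihood, R 4.3.3) with the mouse as a block, and p-values were adjusted by Benjamini-Hochberg over all genes tested at a threshold of 0.05. Interaction terms tested region by genotype and region by sex. Pairing comes from the mouse numbers in the labels: both libraries of a number are from 1 animal. The correlation of same-mouse deviations was -0.16 to 0.14 over 12 pairs. Coordinates and sequences came from GENCODE M21 (GRCm38), matched by symbol (53253 of 55367), and near-identical genes were found with blastn 2.17.0. Alternatives were DESeq2 1.42.0 and its size factors, no filter, thinned dorsal libraries, length and GC offsets, no block, each sex, KO mice alone and each mouse left out. The scripts were tested on simulated data.

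The members and the 32 gene lists were chosen with earlier results of these data known. Named were Acss2, the genes with separate ranges as described, all pole and field genes, and up to 4 called members per list with the largest change. Genes picked after their values were seen are marked so, and a few genes of the lists are not reported here. Each library is a separate dissection. With the mouse as a block, p-values measure how the difference between regions within a mouse varies across these mice. Differences between dissections and libraries are part of that spread.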

Additional observations from a re-analysis of the deposited data

Results flagged for a closer look

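Scores of 15 lists and levels of 52 genes were examined in 4 groups of 6 libraries (region by genotype), 268 groups of values in all. In 21 of them 1 library stood apart from the other 5, by the gap to its nearest neighbour over the range. Chance gives this in about 1 in 20 groups where values follow a normal distribution. CPM values need not follow it, and the rate for these data was not tested.

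Mouse 23 (WT) stood apart in its dorsal library. Ttr was 4419 CPM there, with the other dorsal WT libraries at 1.57 to 1154 CPM, Kl 123 CPM (others 21.4 to 49.2), Htr2c 133 CPM (others 5.81 to 32.1) and Cbln4 16.8 CPM (others 3.68 to 6.62). Drd5 was lowest in it at 7.58 CPM (others 18.6 to 25.2).

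Mouse 1 (KO) stood apart in both regions. Prkcd was 165 CPM in its dorsal library (others 13.5 to 34.6) and 144 CPM in its ventral one (others 4.78 to 16.9). Ttr was 998 CPM in dorsal (others 11.6 to 50.4) and 77 CPM in ventral (others 2.26 to 27.1), and the ventral thalamus score was 5.16 (others 2.36 to 3.38). Mouse 6 (KO) had a ventral striatal score of 8.46 (others 3.29 to 4.26).

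The remaining cases were single genes. Among ventral WT libraries, mouse 11 was highest for Ccn3 (415 CPM, others 68.3 to 136) and Mpped1 (431 CPM, others 142 to 242), mouse 3 for Cbln4 (66.7 CPM, others 11.1 to 25.7) and mouse 24 for Col6a1 (117 CPM, others 13.6 to 32.3). Mouse 12 was highest for Robo3 (37.1 CPM, others 3.23 to 14.5) and Gabrg1 (60.7 CPM, others 31 to 41.9), and mouse 13 lowest for Sstr1 (10.3 CPM, others 22.9 to 29). Among KO libraries, Mpped1 was lowest in ventral mouse 10 (87.2 CPM, others 269 to 355), Grin3a highest in dorsal mouse 4 (47 CPM, others 27.3 to 33.4) and Nr3c2 highest in dorsal mouse 2 (293 CPM, others 174 to 217).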

How the results depend on the processing

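Region, depth and library set cannot be told apart here, and ventral depth limits what low genes can show. The count over all mice (1711) was 178 in males alone, 482 in females alone and 591 in KO mice alone. The count of at least 2-fold genes (152) was 856 with no filter on low counts, 74 with thinned dorsal libraries (150, 96 higher and 54 lower, when thinned with the same genes kept, a fit chosen after seeing the data; refiltering after thinning left 9958 of 12216 genes, and the drop came with the genes that left), 97 in males alone and 37 at a log2 change of 2 or more. In WT mice (222) DESeq2 called 401, no filter gave 1128, thinning 97 and females alone 49. For region by genotype DESeq2 called 1 gene and no filter gave 69, and for region by sex no filter gave 47. Leaving out 1 mouse gave 1290 (without mouse 11) to 1946 (without mouse 23) genes over all mice, 133 to 180 at least 2-fold, 102 (without mouse 12) to 232 in WT mice, with 137 without mouse 11, and 0 in both interactions. Other causes were not tested, apart from the smaller number of mice where mice were left out.

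Without the replicate block 1811 genes were called over all mice, 148 at least 2-fold and 186 in WT mice, and both interactions stayed at 0. Without mice 6 and 23, a fit chosen after seeing the data, 1642 were called. With length and GC offsets mt-Nd6 was -0.091 over all mice (adjusted p = 0.612) and -0.055 in WT mice (adjusted p = 0.901), not called in either. In WT males alone Fibcd1 was -0.92 and Pou3f1 -0.86. Of the named genes over all mice, 2410 values under an alternative kept the call or its absence. A change of sign with no call in either fit counted among these. Of the others, 244 lost the call, 28 gained it and 1, mt-Nd6, was called in the main fit and changed sign with no call.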
